A study of Mus musculus with 4 samples.

Results

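The cells described here are barcodes from mouse brain that carried RNA of at least 3 of the genes Marco, Msr1, Fpr1 and Mcemp1, with at least 5 unique molecular identifiers (UMIs, each standing for 1 captured RNA molecule) of those genes together. They were selected on these genes, on at most 2 UMIs of Cldn5, Aqp4 and Mog together (genes of endothelial cells, astrocytes and oligodendrocytes) and on at most 1 UMI of the neutrophil genes Retnlg and Cxcr2. The rule was met by 399 of 60717 barcodes that held at least 1000 UMIs, at least 500 genes and at most 20% mitochondrial UMIs. All 399 came from mice given lipopolysaccharide (LPS), 36 from APOE3 and 363 from APOE4 mice.

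Brain cell suspensions enriched for glia were made from male mice whose Apoe gene was replaced by human APOE3 or human APOE4. An intraperitoneal injection of 5 mg/kg LPS, a component of the bacterial outer membrane, or of NaCl was given to mice of either genotype 24 h before the brain was taken. The 4 combinations of genotype and injection were sequenced as 1 single-cell library each, made from 3 mice, and no barcode could be assigned to a mouse. With 1 sample per group no test between groups was possible. The intervals given are exact 95% intervals that cover counting error only.

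Marco and Msr1 encode class A scavenger receptors, which bind bacterial and modified lipid ligands at the macrophage surface. Fpr1 encodes a receptor for formylated bacterial peptides, and Mcemp1 a membrane protein of monocytes, neutrophils and some macrophages. Macrophages in the brain include microglia of the parenchyma and border macrophages of the meninges, choroid plexus and perivascular spaces, and monocytes can enter from blood during inflammation. The 4 genes occur in more than 1 of these lineages, so the identity of the selected cells has to be read from other genes.

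The share of selected cells differed widely between the LPS libraries. In the APOE3 LPS library 36 of 15060 kept barcodes met the rule, or 0.239% (0.167 to 0.331%). In the APOE4 LPS library 363 of 18182 did, or 2.0% (1.80 to 2.21%). None of 14404 barcodes met it in APOE3 NaCl (exact upper limit 0.0256%) and none of 13071 in APOE4 NaCl (0.0282%). By the simpler limit of 3 counts of the total, a count of 0 allows up to 0.0208% and 0.0230%.

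The depth of the libraries differed, and a rule on UMIs depends on depth. The median kept barcode held 5954 UMIs in APOE3 LPS and 2311 in APOE4 LPS, and 4150 and 4431 in the NaCl libraries. The selected cells were deeper, with a median of 15080 UMIs in APOE3 LPS and 12097 in APOE4 LPS. When barcodes of at least 5000 UMIs were thinned to 5000 before the rule was applied, 9 of 9125 met it in APOE3 LPS (0.0986%, 0.0451 to 0.187%) and 134 of 4894 in APOE4 LPS (2.74%, 2.30 to 3.23%), with 0 in either NaCl library. Without thinning, 36 (0.395%) and 314 (6.42%) of those same barcodes met it. The shares in the LPS libraries did not overlap at either depth, but genotype and library cannot be told apart with 1 library each.

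**Figure D1:**
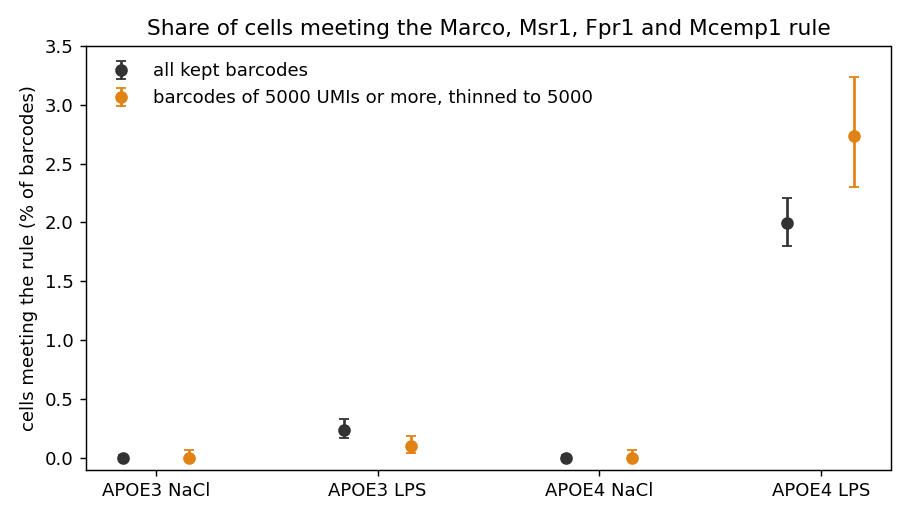
Cells meeting the rule as a percentage of barcodes in each library, for all kept barcodes (dark points) and for barcodes of at least 5000 UMIs thinned to 5000 (orange points), with exact 95% intervals for counting error. APOE4 LPS lies at 2.0% and 2.74%, APOE3 LPS at 0.239% and 0.0986%, and both NaCl libraries at 0.

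The 4 genes were not detected together in most cells. Msr1 had a UMI in 36 of 36 selected cells of APOE3 LPS and in 362 of 363 of APOE4 LPS, and Mcemp1 in 31 and 312. Marco had a UMI in only 21 of 36 (58.3%) and 226 of 363 (62.3%), so the cells cannot all be called Marco positive at this depth. Fpr1 had one in 23 and 229. Cells with Msr1, Fpr1 and Mcemp1 but no Marco numbered 15 in APOE3 LPS and 137 in APOE4 LPS, and cells with all 4 genes numbered 3 and 40.

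Marco varied most from cell to cell. Its median was 2 UMIs per cell in both LPS libraries, with a range of 0 to 169 in APOE3 LPS and 0 to 125 in APOE4 LPS. Its upper quartile was 26.25 UMIs in APOE3 LPS and 10 in APOE4 LPS. Summed over the cells, Marco stood at 1580 CPM (a gene's UMIs scaled to a common total of UMIs per population) in APOE3 LPS, where 18.6% of its UMIs came from 1 cell, and at 688 CPM in APOE4 LPS. Msr1 stood at 273 CPM in APOE3 LPS and 860 CPM in APOE4 LPS, with medians of 3.5 and 8 UMIs per cell. These values chose the cells and are given as a description.

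**Figure D2:**
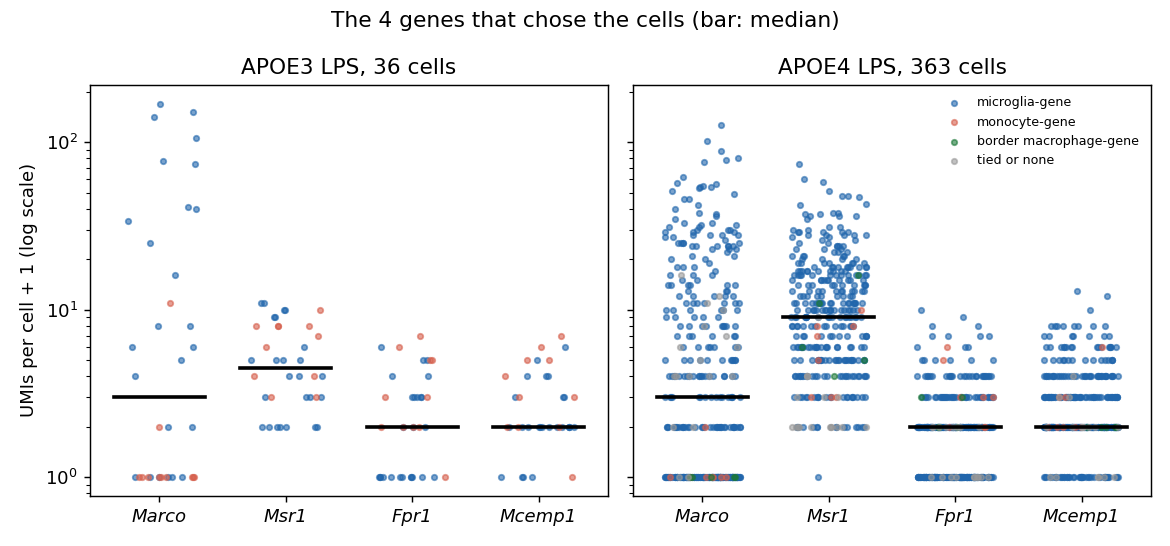
UMIs per cell plus 1, on a log scale, for the 4 genes that chose the cells in the APOE3 LPS (36 cells) and APOE4 LPS (363 cells) libraries, coloured by the identity class of each cell. Black bars are medians over cells. Marco runs from 0 to 169 UMIs, with the highest values in microglia-gene cells (blue).

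Outside the selection, Marco was nearly absent from NaCl brains, with 1 UMI among all kept barcodes in each NaCl library, against 3367 in APOE3 LPS and 10532 in APOE4 LPS. Selected cells held 27.0% of the Marco UMIs of APOE3 LPS and 30.3% of those of APOE4 LPS. Other microglia-gene cells, defined below, held 41.2% and 22.9% of them. Of the Msr1 UMIs, selected cells held 2.53% and 20.5%, and other microglia-gene cells 43.2% and 20.9%. Border macrophage-gene cells, also defined below, held 10.1% and 3.26% of the Msr1 UMIs. Most of the remaining UMIs of both genes lay in kept barcodes that belonged to none of the populations described here. Most of the Fpr1 UMIs in APOE3 LPS (55.6%) and 46.0% of its Mcemp1 UMIs lay instead in neutrophil-gene cells (at least 3 UMIs of Retnlg and Cxcr2). In APOE4 LPS neutrophil-gene cells held 6.84% and 4.48%. Selected cells held 10.7% of the Fpr1 and 5.91% of the Mcemp1 UMIs in APOE3 LPS, and 39.8% and 29.8% in APOE4 LPS. Of the oligodendrocyte-gene cells, 0.27% in APOE3 LPS and 0.69% in APOE4 LPS had a Marco UMI. These barcodes had at least 5 UMIs of the myelin genes Mag, Mobp and Mog, with medians of 6170.5 and 5159 UMIs per cell. They were also limited to at most 2 UMIs of Cldn5 and Aqp4 together and at most 1 each of C1qa, C1qb and C1qc. The limit on these macrophage genes removes barcodes with myeloid RNA. Values in these cells, here and below, can therefore understate free RNA.

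The rule was just met, with 3 genes and 5 UMIs, by 4 cells of APOE3 LPS and 22 of APOE4 LPS, and just missed, with 3 genes and 4 UMIs, by 6 and 18. A further 143 and 768 barcodes had at least 5 UMIs from only 2 of the 4 genes.

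Identity was read from 3 lists of 10 genes each. A cell was placed in the class whose list had the most genes with a UMI, if at least 3 were detected, and was called tied or unplaced otherwise. In APOE3 LPS, 25 of 36 selected cells fell in the microglia-gene class (69.4%, 51.9 to 83.7%) and 11 in the monocyte-gene class (30.6%, 16.3 to 48.1%). In APOE4 LPS, 332 of 363 fell in the microglia-gene class (91.5%, 88.1 to 94.1%), 8 in the monocyte-gene class (2.20%), 5 in the border macrophage-gene class (1.38%) and 18 in none. Those 18 were shallow, with a median of 2294 UMIs.

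Microglia-gene cells had a median of 8 microglia genes and 0 monocyte genes in APOE3 LPS, and 7 and 0 in APOE4 LPS. Monocyte-gene cells had medians of 2 microglia and 8 monocyte genes in APOE3 LPS, and 1 and 7.5 in APOE4 LPS. Only 2 cells in each library had at least 3 genes of both lists. Marco was rare in the monocyte-gene class, with a UMI in 2 of 11 cells of APOE3 LPS and 1 of 8 of APOE4 LPS, where the rule was met mainly through Msr1, Fpr1 and Mcemp1.

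**Figure D3:**
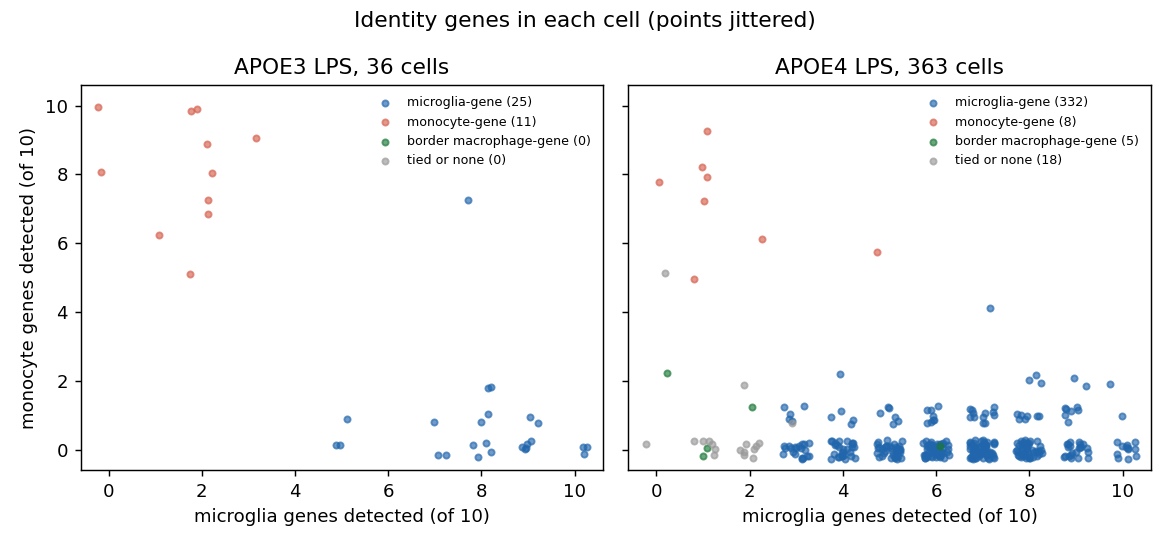
Number of microglia genes (x axis, of 10) and monocyte genes (y axis, of 10) with a UMI in each selected cell of the APOE3 LPS and APOE4 LPS libraries, with points jittered. In APOE3 LPS 25 microglia-gene cells (blue) lie along the x axis and 11 monocyte-gene cells (red) at the upper left; in APOE4 LPS the numbers are 332 and 8.

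The 9 microglia genes reported here were all detected in the selected cells of both libraries, at levels below those of other microglia-gene cells. The latter were barcodes that did not meet the rule and had at least 3 of the 10 microglia genes and at most 1 border macrophage gene, 3871 in APOE3 LPS and 5452 in APOE4 LPS. That limit on border macrophage genes was not set for the selected cells. Selected cells of the microglia-gene class had a median of 2 of these genes in both libraries. What this unequal limit adds to the ratios below was not tested. P2ry12, the purinergic receptor of resting microglia, stood at 174 and 432 CPM in APOE3 LPS and at 253 and 388 CPM in APOE4 LPS. Tmem119, a microglial membrane protein, stood at 195 and 547 CPM and at 224 and 428 CPM. Gpr34 showed a wider gap, with 41.7 against 210 CPM in APOE3 LPS and 33.8 against 202 CPM in APOE4 LPS. These genes chose the comparison cells, so the gaps are descriptions. The values of the selected cells pool all classes. In APOE3 LPS they include 11 monocyte-gene cells of 36, with a median of 2 microglia genes. The part of the monocyte-gene cells in these gaps was not tested.

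Border macrophage genes were at or near 0 apart from Stab1 and Dab2. Mrc1, the mannose receptor, Cd163, the haptoglobin-haemoglobin receptor, Pf4, Lyve1, Ms4a7 and Cd209f had no UMI in the selected cells of APOE3 LPS, and Cbr2 and Folr2 had 1 each. In APOE4 LPS Mrc1 had a UMI in 5.5% of cells and Pf4 in 4.4%, at 21.3 and 22.2 CPM, against 1979 and 1627 CPM in the 175 border macrophage-gene cells of that library (at least 4 of the 10 genes). Dab2, an endocytic adaptor, stood at 69.5 CPM in APOE3 LPS and 252 CPM in APOE4 LPS, and the scavenger receptor gene Stab1 at 83.4 and 200 CPM. At least 3 microglia and 3 border macrophage genes were found together in 0 selected cells of APOE3 LPS and 26 of APOE4 LPS.

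Monocyte genes were found in more of the selected cells of APOE3 LPS. Ly6c2, a surface marker of inflammatory monocytes, had a UMI in 33.3% of the selected cells of APOE3 LPS and 4.1% of those of APOE4 LPS. Ccr2, the receptor for CCL2, had one in 30.6% and 2.2%, and Chil3 in 30.6% and 1.7%. Of the 10 neutrophil genes that the rule did not use, Ngp, Ltf and Ly6g were at 0 in both libraries, and S100a9, Camp and Mmp9 had a UMI in at most 5.6% of cells. Mmp8 had one in 2.8% and 8.0%. Csf3r, the receptor for granulocyte colony-stimulating factor, had one in 63.9% and 37.5%, and Il1r2, a decoy receptor for interleukin-1, in 30.6% and 26.2%. S100a8, whose product pairs with that of S100a9, had one in 50% and 57.3%, against 2.45% and 1.39% of oligodendrocyte-gene cells. Of the 10 dendritic cell genes, Xcr1 and Clec9a were at 0 in both libraries and 7 others had a UMI in at most 5.6% of cells. Fscn1, an actin-bundling protein, had one in 50% and 30.6%, at 102.5 and 36.9 CPM.

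**Figure D4:**
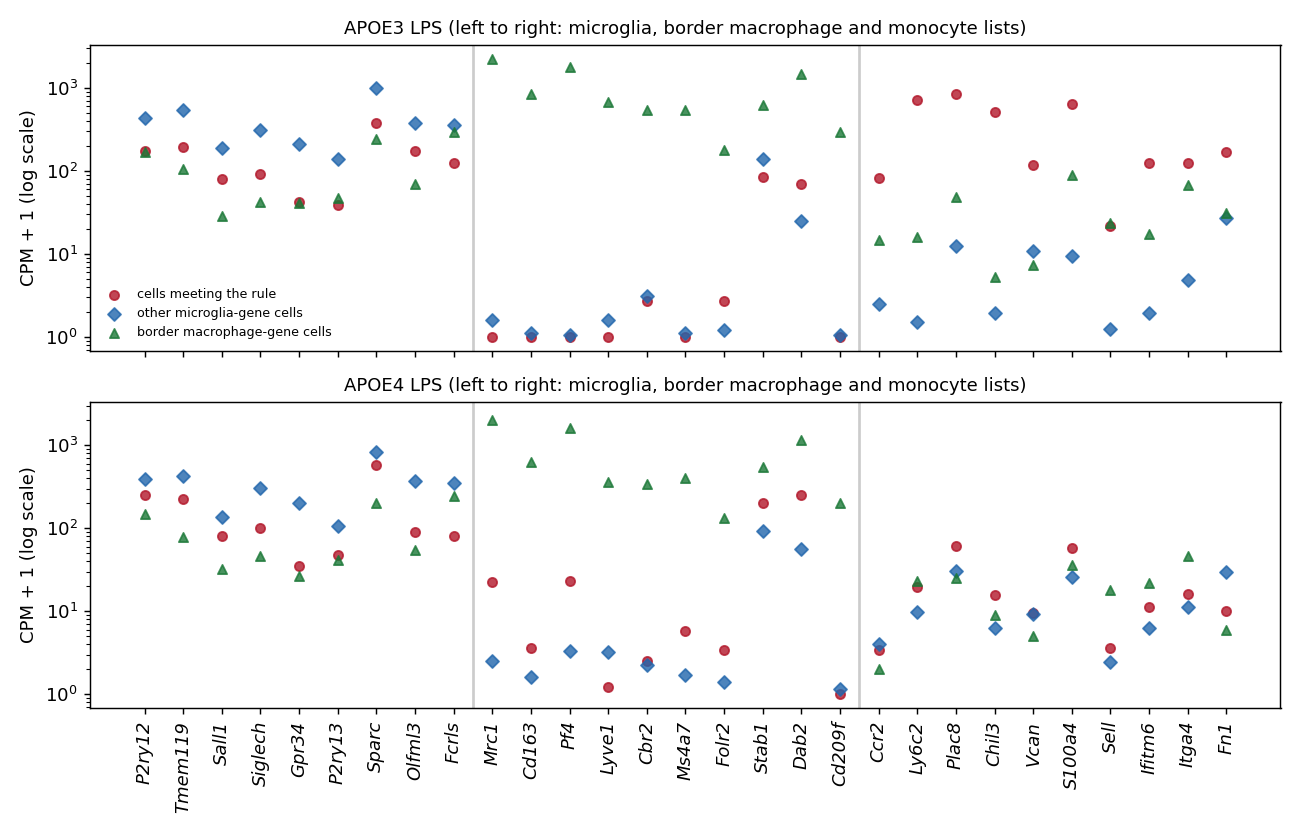
Summed level (CPM plus 1, log scale) of 9 microglia, 10 border macrophage and 10 monocyte genes in selected cells (red circles), other microglia-gene cells (blue diamonds) and border macrophage-gene cells (green triangles) of the APOE3 LPS library (top) and APOE4 LPS library (bottom). Most border macrophage genes lie near 0 in selected cells, P2ry12 stands at 174 and 253 CPM in them, and monocyte genes are high in those of APOE3 LPS.

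Markers of other brain cells were measured alongside. Summed over 8 genes, astrocyte markers stood at 773 CPM in the selected cells and 1402 CPM in the other microglia-gene cells of APOE3 LPS, and at 670 and 2105 CPM in APOE4 LPS, with all 8 detected in each. Oligodendrocyte markers stood at 292 and 1163 CPM and at 649 and 1545 CPM. Of these sums Trf, the transferrin gene, gave 179 and 615 CPM and 418 and 514 CPM. In single selected cells astrocyte markers made up 0 to 0.443% of UMIs in APOE3 LPS and 0 to 1.24% in APOE4 LPS. A doublet caller marked 5 of the 36 selected cells of APOE3 LPS. In that library it marked 253 of 3871 other microglia-gene cells and 8.20% of all kept barcodes. It made no call in APOE4 LPS, where it did not work. Between 47 and 83 kept barcodes were shared by each pair of libraries, and no selected cell had the barcode of a selected cell in another library. In each pair of libraries at most 2 selected cells had a barcode that was kept in the other library.

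The selected cells were compared with the other microglia-gene cells of the same library over all genes with at least 10 UMIs in either population, and a gene was called if its CPM differed by at least 2-fold. In APOE3 LPS 1404 of 16792 genes (8.36%) were higher in the selected cells and 5997 (35.7%) lower. In APOE4 LPS 317 of 16865 (1.88%) were higher and 4934 (29.3%) lower. The comparison cells held many more UMIs in all, so that genes of very low level could be called lower on few counts. With at least 50 UMIs required, the counts were 772 and 3501 in APOE3 LPS, and 177 and 2968 in APOE4 LPS. Per barcode the comparison cells were shallower, with a median of 6882 UMIs in APOE3 LPS and 2164 in APOE4 LPS. The selected cells had medians of 15080 and 12097, so these ratios set deeper against shallower barcodes.

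With the monocyte-gene cells included, Ly6c2 and Chil3 ranked first among the genes higher in APOE3 LPS. Ly6c2 stood at 713 against 0.51 CPM, Chil3 at 511 against 0.919 CPM and Plac8 at 853 against 11.4 CPM. Each had a UMI in 30.6 to 33.3% of the selected cells, close to the share of monocyte-gene cells. Prtn3, a granule protease, stood at 99.1 against 0.272 CPM, but 87.7% of its UMIs came from 1 cell. In APOE4 LPS the leading genes were Tfec, Slfn1, Lilr4b, Il6, Clec4d and Plbd1, each 4.95-fold to 8.34-fold higher. Slfn1 and Plbd1 had no UMI in the 332 microglia-gene cells among them.

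The comparison was repeated with the microglia-gene class of the selected cells only. In APOE3 LPS 940 of 16779 genes (5.6%) were then at least 2-fold higher and 6913 (41.2%) lower in the 25 cells, and in APOE4 LPS 274 of 16861 (1.63%) and 5139 (30.5%) in the 332 cells. Genes of the rule and of the microglia and border macrophage lists were left out. Genes of the monocyte list, which also took part in placing cells in the class, were kept in. Of 13805 genes measured in both libraries, 62 were at least 2-fold higher in both, which is 8.91% of those higher in APOE3 LPS and 34.8% of those higher in APOE4 LPS. A further 254 were higher in APOE3 LPS and lower in APOE4 LPS, and 53 the reverse. Of the 13805 genes, 696 were higher and 4898 lower in APOE3 LPS, and 178 were higher and 3763 lower in APOE4 LPS. The 254 and 53 were not tested against these totals.

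Fpr2, Acod1 and Aoah were higher in the selected microglia-gene cells of both libraries. Fpr2, a second formyl peptide receptor, was at 88.7 CPM in the selected cells and 1.6 CPM in the comparison cells of APOE3 LPS (55.5-fold, 34.1 to 89.2), and at 48.0 and 11.9 CPM in APOE4 LPS (4.02-fold, 3.33 to 4.86). It had a UMI in 32% and 34.04% of the selected cells. Acod1, the enzyme that makes itaconate, was at 301 and 16.3 CPM in APOE3 LPS (18.5-fold, 14.8 to 22.9) and at 134 and 37.3 CPM in APOE4 LPS (3.58-fold, 3.21 to 3.997). Aoah, an acyloxyacyl hydrolase that inactivates LPS, was at 489 and 42.0 CPM (11.7-fold, 9.88 to 13.7) and at 209 and 63.1 CPM (3.32-fold, 3.04 to 3.61), with a UMI in 80.0% and 69.9% of the selected cells. In other microglia-gene cells of the NaCl libraries these 3 genes were all below 1 CPM.

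Of the acute-phase and iron genes, Fth1 and Saa3 were the most abundant. Saa3, an acute-phase apolipoprotein, made up 11701 CPM of the selected cells against 839 CPM of the comparison cells in APOE3 LPS (13.95-fold, 13.5 to 14.4), and 10729 against 5176 CPM in APOE4 LPS (2.07-fold, 2.05 to 2.10). Border macrophage-gene cells held still more, 32049 CPM in APOE3 LPS and 32757 CPM in APOE4 LPS. Saa3 had a UMI in 52% and 75.6% of selected cells, and also in 6.59% and 30.5% of oligodendrocyte-gene cells, at 40.7 and 98.2 CPM. Fth1, the ferritin heavy chain, was at 26062 and 9034 CPM in APOE3 LPS (2.88-fold) and at 27067 and 13279 CPM in APOE4 LPS (2.04-fold). The iron exporter gene Slc40a1 was at 5.72 and 30.9 CPM in APOE3 LPS and 8.83 and 25.5 CPM in APOE4 LPS. Of the 12 genes measured, 7 were at least 1.5-fold higher and 3 lower in APOE3 LPS, and 6 and 3 in APOE4 LPS. Over all genes measured, 10.8% were that much higher and 51.5% lower in APOE3 LPS, and 4.63% and 41.3% in APOE4 LPS.

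Chemokine genes did not move in 1 direction. Ccl5, a T cell and monocyte attractant, was at 4305 and 642 CPM in APOE3 LPS (6.71-fold, 6.36 to 7.07) and at 4860 and 2296 CPM in APOE4 LPS (2.12-fold, 2.08 to 2.15). Cxcl2, a neutrophil attractant, was at 498 and 42.1 CPM (11.8-fold) and at 207 and 76.9 CPM (2.69-fold). Cxcl10, an interferon-induced T cell attractant, was at 63.0 and 192 CPM and at 57.3 and 122 CPM, lower in both. In all, 6 of 13 chemokine genes were at least 1.5-fold higher and 2 lower in APOE3 LPS, and 5 and 5 of 15 in APOE4 LPS. The shares over all genes measured are those given for the acute-phase genes above.

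Cytokine genes were also mixed. Tnf was at 550 and 727 CPM in APOE3 LPS and 446 and 404 CPM in APOE4 LPS. Il1b was at 392 and 739 CPM and at 280 and 326 CPM. Il6 was at 77.9 and 15.1 CPM in APOE4 LPS (5.15-fold, 4.40 to 6.04), with a UMI in 16.6% of the selected cells and 17.4% of its UMIs from 1 cell. In APOE3 LPS a single Il6 UMI was counted in the 25 cells. Il1rn, which encodes the interleukin-1 receptor antagonist, was 5.22-fold (2.34 to 10.2) and 2.09-fold (1.68 to 2.58) higher.

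Receptor genes of the Fc and paired immunoglobulin-like families were higher in APOE4 LPS, with 7 of 12 at least 1.5-fold higher and 0 lower. Over all genes measured, by the shares given for the acute-phase genes above, far fewer were higher than lower. Lilr4b was at 35.5 and 6.82 CPM there (5.21-fold, 4.11 to 6.61). The adaptor gene Fcer1g, the most abundant, was 1.575-fold higher in APOE3 LPS and 1.24-fold in APOE4 LPS. In APOE3 LPS 4 of 12 were higher and 4 lower, and Fcgr3, an activating Fc receptor, was at 332 and 862 CPM. The list's median there was -0.01, and 0.02 with genes of 0 UMIs at the floor of 3 UMIs. Fgr, a Src-family kinase of myeloid cells, was 3.63-fold (3.23 to 4.08) higher in APOE4 LPS.

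Of 17 hypoxia and glycolysis genes, 8 were at least 1.5-fold higher and 1 lower in APOE3 LPS, and 7 and 3 in APOE4 LPS, with median log2 ratios of 0.50 and 0.40 (medians over all genes -0.50 and -0.32). The shares of all genes higher and lower by as much are those given for the acute-phase genes above. Gapdh was 1.62-fold and 1.51-fold higher, and Pkm, the last kinase of glycolysis, 1.91-fold and 1.52-fold. Pfkfb3, which raises glycolytic flux, was at 408 and 212 CPM in APOE4 LPS (1.93-fold) and at 343 and 313 CPM in APOE3 LPS. Sod2, the mitochondrial superoxide dismutase, was 9.44-fold (8.55 to 10.4) higher in APOE3 LPS.

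Immediate-early genes were at least 1.5-fold lower for 9 of 14 in APOE3 LPS and 8 of 14 in APOE4 LPS, with none higher and medians of -0.70 and -0.65. Of all genes, 51.5% and 41.3% were lower by as much, with medians of -0.50 and -0.32. Klf2 was at 126 and 315 CPM in APOE3 LPS and at 135 and 365 CPM in APOE4 LPS, and Egr1 at 218 and 613 CPM and at 306 and 561 CPM. Of interferon-stimulated genes, 10 and 11 of 23 were lower (43.5% and 47.8%, near the shares of all genes) and 5 and 2 higher, with Ifit3 at 2.86 and 35.6 CPM and at 4.75 and 22.7 CPM. Of the 16 cholesterol synthesis genes 13 were lower and 0 higher in APOE4 LPS, against 4 lower and 5 higher in APOE3 LPS.

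Genes of the TREM2-dependent and lipid-associated state of microglia were mixed. Of 16 genes, 4 were at least 1.5-fold higher and 7 lower in APOE3 LPS, and 1 and 8 in APOE4 LPS. The shares lower, 43.8% and 50%, stood near those of all genes, 51.5% and 41.3%. Cst7 was 1.98-fold and 2.02-fold higher. Spp1, which encodes osteopontin, was at 14.3 CPM, all from 1 cell, and 95.1 CPM in APOE3 LPS and at 24.9 and 71.0 CPM in APOE4 LPS, and Ctsd, the lysosomal cathepsin D, at 1219 and 2107 CPM and at 785 and 1472 CPM. Fabp5, a fatty acid-binding protein, was at 11.4 and 36.5 CPM and at 22.6 and 93.2 CPM.

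**Figure D5:**
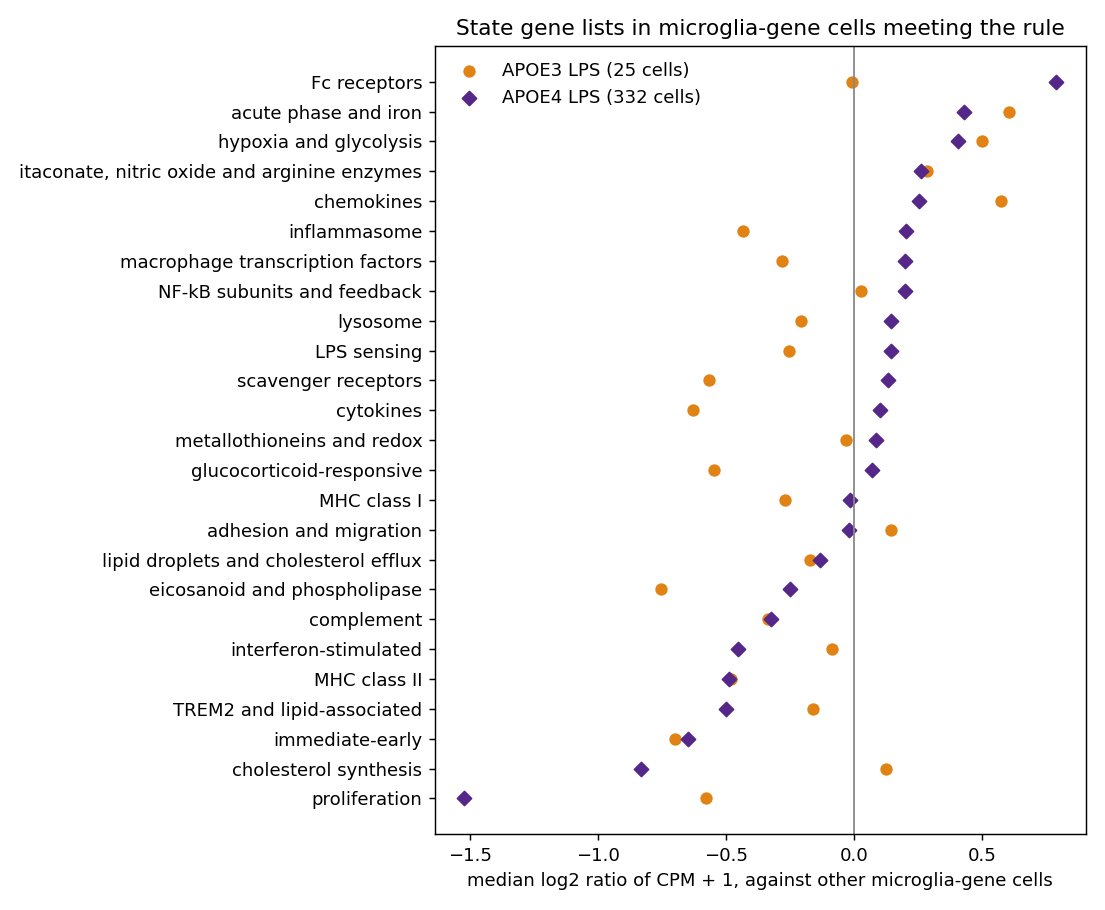
Median log2 ratio of CPM plus 1 over the genes of each state list, for microglia-gene selected cells against other microglia-gene cells, in APOE3 LPS (orange circles, 25 cells) and APOE4 LPS (purple diamonds, 332 cells). Glycolytic genes lie at 0.50 and 0.40, immediate-early genes at -0.70 and -0.65, and Fc receptor genes at -0.01 and 0.79.

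The genes furthest below the comparison cells included genes typical of other cell types. In APOE3 LPS they were led by Ttr, a product of the choroid plexus, Mgp, Prg4, Ptgds and Apod. Ttr was at 126 and 2735 CPM, and Timp1 was at 0 UMIs against 116 CPM. In APOE4 LPS they included Avp, of which 97.2% of the comparison UMIs came from 1 barcode, Ccn3, Rspo3, Pomc, Prg4 and Mgp. The comparison cells also held more of the astrocyte and oligodendrocyte markers given above, and the part of such barcodes in the lower genes was not tested.

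The 11 monocyte-gene cells of APOE3 LPS were set beside the 25 microglia-gene cells of that library, a comparison added after both classes were seen. Of 5486 genes 1010 (18.4%) were at least 2-fold higher in the monocyte-gene cells and 997 (18.2%) lower, with genes of the class lists left out. With at least 50 UMIs required the counts were 134 and 268. S100a6 was at 2022 and 63.0 CPM (32.1-fold, 20.9 to 51.8), Tmsb10 at 2442 and 106 CPM, Lgals1 at 934 and 28.6 CPM, and F13a1, which encodes a coagulation factor subunit, at 593 and 11.5 CPM. S100a6, Tmsb10 and Lgals1 had a UMI in all 11 cells. Clec4e, a receptor for mycobacterial glycolipid, was at least 25.8-fold higher against a floor of 3 UMIs over the microglia-gene cells, where it had none.

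Several chemokine genes were lower in the monocyte-gene cells. Ccl12 was at 4.42 and 1408 CPM, Ccl5 at 146 and 4305 CPM, and Cx3cr1, the fractalkine receptor, at 48.7 and 2596 CPM. Of 10 chemokine genes measured 9 were at least 1.5-fold lower, against 26.8% of all genes. Saa3 did not separate the classes, at 11866 and 11701 CPM (1.01-fold, 0.97 to 1.06). Il1b was at 792 and 392 CPM (2.02-fold, 1.61 to 2.54) and Tnf at 35.4 and 550 CPM. Of the 10 proliferation genes measured all 10 were at least 1.5-fold higher, against 29.6% of all genes, with a median log2 ratio of 4.59, or 2.58 with genes of 0 UMIs at the floor. Top2a, a topoisomerase of dividing cells, had 42 UMIs against 0, with 59.5% of them in 1 cell. Haemoglobin genes were led by 1 microglia-gene cell, which held 99.3% of the Hbb-bs UMIs.

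Selected cells of APOE4 LPS were also set directly against those of APOE3 LPS. In APOE4 LPS 1798 of 12237 genes (14.7%) had at least 2-fold the level, and 942 (7.7%) were lower by as much. With called doublets of APOE3 LPS removed the counts were 2861 and 627, and from 50 UMIs 647 and 326. The monocyte genes were lower, with Ly6c2 at 18.3 and 713 CPM, Chil3 at 14.7 and 511 CPM, and Ccr2 at 2.37 and 81.7 CPM. Within the microglia-gene class 2357 of 12003 genes (19.6%) were higher in APOE4 LPS and 719 (5.99%) lower.

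Within that class, the metallothionein gene Mt2 was at 599 CPM in APOE4 LPS and 71.6 CPM in APOE3 LPS (8.37-fold, 5.66 to 12.97), with a UMI in 81.0% and 32% of cells. Il6 was at 77.9 and 2.86 CPM, the latter from 1 UMI. Tgfbi, an extracellular matrix protein, was at 157 and 17.2 CPM (9.12-fold, 4.17 to 24.9), Cited2 at 175 and 25.8 CPM, and Rnf169 at 669 and 117 CPM. Ttr was at 5792 and 126 CPM, with 31.3% of its UMIs in APOE4 LPS from 1 cell, and stood at 6959 and 8206 CPM in other microglia-gene cells of the APOE3 and APOE4 NaCl libraries. Lyz2, lysozyme, was at 432 and 1863 CPM, Cd52 at 356 and 1689 CPM, Cd72 at 49.6 and 232 CPM and Tmem176b at 77.0 and 415 CPM, all lower in APOE4 LPS. Genotype and library cannot be told apart in these values. Levels in the other microglia-gene cells of the LPS libraries are not given beside them. Those cells also differed between the libraries, with Saa3 and Ccl5 higher and Il1b lower in APOE4 LPS in the values given above.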

How the data were processed

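Each library was deposited as a matrix of raw UMI counts, in whole numbers, for 32285 genes. Its header names Cell Ranger 7.0.1, and the submitters' processing notes name Cell Ranger 7.0 and the mouse build mm10. Depth ranged from 73288965 to 114378032 UMIs per library in 14122 to 29361 barcodes. Groups came from the sample titles. The members of the selection and the gene lists were chosen with earlier results of these data known. Of the fixed symbols, 2 were not matched and are not analysed here, and 1 with more than 1 identifier was left out. The level of 1 further microglia gene is not reported here.

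UMIs were summed over each population and expressed as CPM. Ratios carry exact conditional binomial 95% intervals, shares exact binomial (Clopper-Pearson) ones, and log2 ratios a pseudocount of 1 CPM. A floor of 3 UMIs for counts of 0 was used only where the text says so, and not in the other ratios, calls or medians. Named genes had at least 50 UMIs over both populations. They were the 12 higher and 12 lower genes ranked first by the interval bound nearer 1, that bound lying farthest from 1. Predicted, mitochondrial, ribosomal and Y-linked genes were left out. In each list up to 4 more were named: the extremes and the most abundant. Many genes named in 1 library are given in both. Others, such as Sod2, Fcgr3, Timp1, Fgr, Lilr4b and Avp, are given in 1 library only. Tnf between the classes and the single identity genes were named after their values were seen. Doublets were sought with Scrublet in scanpy 1.11.5, with Python 3.11.15, SciPy 1.17.1 and NumPy 2.4.6. The ratio and interval code was tested on simulated data. Alternatives changed the filters, marker rule, doublets, low-count limit, pseudocount, weights, scaling, depth, class and comparison cells.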

Additional observations from a re-analysis of the deposited data

Results flagged for a closer look

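The values of the 2 LPS libraries below had opposite signs. Their size was at least 1.5-fold, apart from Ccl7 in APOE4 LPS, which at -0.56 fell just short. For some genes 1 sign rests on 0 or 1 UMI, as given there. Each value is a log2 ratio to the other microglia-gene cells of the same library. There was 1 library per genotype, so no difference was tested, and chance or 1 cell can give such a pair.

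Over all selected cells, the proliferation genes had a median of 2.78 in APOE3 LPS and -0.60 in APOE4 LPS. With only microglia-gene cells the median in APOE3 LPS was -0.58. Il6 stood at -2.30, from 1 UMI, and 2.23. Mmp19, a metalloproteinase, stood at -2.02 and 2.01. It had 0 UMIs in the selected cells of APOE3 LPS, and its comparison level of 3.06 CPM lay under the floor of 3 UMIs, so the first value is set by the pseudocount and gives no direction. Prtn3 stood at 6.30 and -0.85, with 87.7% of its APOE3 LPS UMIs from 1 cell, and Slpi, a protease inhibitor, at 5.58 and -1.02.

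Among the microglia-gene cells, 25 in APOE3 LPS and 332 in APOE4 LPS, Il6 stood at -1.81 and 2.29 and Tmem154 at -1.70 and 1.85, with 1 UMI of each in APOE3 LPS and counting intervals of the ratio that include equal levels there. Mmp19 stood at -2.02 and 1.96 and Tfec at -0.59 and 1.93, with 0 UMIs in APOE3 LPS and comparison levels under the floor, so that their APOE3 LPS values give no direction. Ccl7 stood at 3.49 and -0.56, Itga4 at 3.66 and -1.09, and S100a4 at 3.70 and -2.04. In APOE3 LPS 1 cell gave 72.7% of the Ccl7 UMIs, 95.2% of those of Itga4 and 97.6% of those of S100a4. Itga4 and S100a4 belong to the monocyte list, which took part in placing cells in this class.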

How the results depend on the processing

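Values are for all selected cells. Genotype comparisons set APOE4 LPS against APOE3 LPS, and class comparisons set monocyte-gene against microglia-gene cells of APOE3 LPS. With 1 library per group no library could be left out. No paired analysis was possible because each group held 1 library. Doublets could not be removed in APOE4 LPS, and the pseudocount does not enter the counts of genes. The causes of the changes below were not tested. Over the alternatives, 77 counts of genes changed by under 1.5 times and 25 by more, and of the single-gene log2 ratios 1255 lay within the counting interval, 521 moved without reversing and 33 reversed. Of those 33, 31 had 0 UMIs in 1 population, so that their size depends on the pseudocount, and 22 have no direction once the 0 is set to the floor of 3 UMIs.

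Requiring all 4 marker genes left 3 cells in APOE3 LPS and 40 in APOE4 LPS, of which 100% and 97.5% were microglia-gene cells. Against other microglia-gene cells, 11171 genes were then lower in APOE3 LPS and 618 higher in APOE4 LPS. With those 3 cells, all 22 single-gene values that changed sign had 0 UMIs in APOE3 LPS. Of these 19 have no direction at the floor, their sign being set by the pseudocount, and the others are Hba-a1, S100a4 and S100a6 between genotypes. Medians stood at -1.32 for monocyte, -0.65 for neutrophil, -0.97 for T and NK cell, -0.089 for itaconate, nitric oxide and arginine enzyme, -0.48 for Fc receptor, -0.83 for adhesion and migration and -1.12 for proliferation genes. Log2 ratios stood at -0.94 for Chil3 and Ifitm6, -0.83 for Clec4e, -2.16 for Gda, -0.42 for Gpr141, -2.28 for Itga4, -0.59 for Ly6c2, -3.63 for Plac8, -0.35 for Prtn3, -3.22 for S100a4 and -1.36 for Slpi. Between genotypes 441 genes were then lower, and medians stood at 5.02 for monocyte, 4.54 for endothelial, 0.033 for adhesion and migration and 0.38 for proliferation genes. Genes stood at 1.36 for Ccr2 and Lhfpl3, 2.05 for Chil3 and Pcdh15, 8.97 for Hba-a1, 5.02 for Ly6c2, 5.44 for Plac8, 6.42 for S100a4, 6.37 for S100a6, 3.58 for Slpi and 2.51 for Vcan.

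With at least 8 marker UMIs 95.3% of the APOE4 LPS cells, and with at least 5000 UMIs 95.2%, were microglia-gene cells, and the first turned Tgfbi between genotypes to -0.15. Thinning to 5000 UMIs before the rule, chosen after seeing the data as was the 5000-UMI limit, left 9 and 134 cells.

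With called doublets removed from APOE3 LPS, medians there reversed to -0.19 for neutrophil, -0.66 for T and NK cell and -0.81 for MHC class II genes. Between genotypes 2861 genes were higher and 627 lower, and Lhfpl3, Opcml, Pcdh15 and Tnr, then at 0 UMIs in APOE3 LPS, stood at 3.23, 3.91, 3.78 and 3.71. Between classes astrocyte genes reversed to -5.59. Without UMIs of other cells' genes, neutrophil genes stood at -0.028 and astrocyte genes at 0.23 in APOE3 LPS, and 632 genes were higher between classes.

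Measured from 50 UMIs, 772 genes were higher and 3501 lower in APOE3 LPS, 177 and 2968 in APOE4 LPS, 647 and 326 between genotypes, and 134 and 268 between classes, and in APOE3 LPS neutrophil genes stood at -0.16 and T and NK cell genes at -1.62. Without a low-count filter 10942 genes were lower in APOE3 LPS, 1179 higher and 8889 lower in APOE4 LPS, 5924 and 2342 between genotypes and 3581 and 3473 between classes. Neutrophil genes then stood at -0.40 between genotypes and NF-kB genes at 0.16 between classes.

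Against comparison cells with 5 microglia genes, neutrophil, astrocyte and endothelial genes stood at -0.19, 0.11 and 0.23 in APOE3 LPS, and 2448 genes were lower in APOE4 LPS. With each cell weighted equally neutrophil and endothelial genes stood at -0.29 and 0.12 in APOE3 LPS. Centred on the median ratio, 578 genes were higher in APOE4 LPS.

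With only microglia-gene members, medians in APOE3 LPS reversed to -0.42 for neutrophil, -0.97 for T and NK cell, -0.48 for MHC class II, -0.0073 for Fc receptor and -0.58 for proliferation genes, and in APOE4 LPS to -1.64 for monocyte genes. For the lists this alternative was chosen after seeing the data. The monocyte list took part in choosing these cells, so its change follows from that choice and is not a result. Clec4e and Prtn3 stood at -0.83 and -0.35 in APOE3 LPS, Plbd1 and Slfn1 at -1.18 and -1.11 in APOE4 LPS, and Top2a at 1.37 between genotypes, each with 0 UMIs in 1 population.

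Thinned to 2000 UMIs, neutrophil and T and NK cell genes stood at -1.85 and -1.38 in APOE3 LPS and Tgfbi at -0.62 between genotypes. Between classes 92 genes were higher and 280 lower, astrocyte genes stood at -1.27 and inflammasome genes at 0.18. Depth limits genes of few UMIs most, and 25 cells limit the APOE3 LPS values.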
